A study of Mus musculus with 9 samples.

Results

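The chromatin contacts of 8 genes in the class II region of the mouse major histocompatibility complex (MHC) were described: H2-Aa, H2-Ab1, H2-Eb1, H2-DMa, H2-Oa, H2-Ob, Tap1 and Psmb8. They were chosen by name from 21631 protein-coding genes, 1059 of them on chromosome 17, and all 8 were found there. On GRCm38 they lie in the order H2-Oa, H2-DMa, Tap1, Psmb8, H2-Ob, H2-Ab1, H2-Aa and H2-Eb1 between chr17:34092379 and chr17:34316674. The data came from HiChIP, which cuts crosslinked chromatin (here with MboI), joins nearby ends and precipitates the joined fragments with an antibody, so that read pairs (paired-end tags, PETs) count contacts between distant DNA segments at sites that the antibody binds. The cells were live CD4+ CD8+ (double-positive) thymocytes, immature T cells that have yet to choose the CD4 or CD8 lineage, sorted from mouse thymus; the age of the mice is not given in the sources used here. Each value averages over many cells, so fewer cells with a contact and fewer contacts per cell cannot be told apart. There were 2 H3K27ac libraries of NOD/ShiLtJ (NOD) mice, which develop autoimmune diabetes, 2 H3K27ac libraries of C57BL/6J (BL6) mice, 1 Smc1 library of (NOD/ShiLtJ X C57BL/6) F1 mice, 2 Smc1 libraries of NOD mice and 2 Smc1 libraries of BL6 mice. H3K27ac marks active promoters and enhancers, and Smc1 is a subunit of cohesin, the ring that forms chromatin loops. The titles number the H3K27ac libraries of a strain as separate biological replicates and the Smc1 libraries as technical replicates of 1 biological replicate, so SDs of Smc1 groups, and p-values of any comparison that uses them, measure in Smc1 only the spread between libraries of 1 sample. The titles of the H3K27ac libraries name Smc1, while their antibody field says H3K27ac, and that field was followed. Per the names of the tables, NOD reads were mapped to a NOD genome and then shifted to reference coordinates, so strain and mapping genome cannot be told apart. The F1 library was listed once on each genome, which gave 10 tables from 9 libraries.

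H2-Aa and H2-Ab1 encode the alpha and beta chains of I-A, and H2-Eb1 the beta chain of I-E, the class II molecules that show peptides to CD4 T cells. H2-DMa encodes a chain of H2-M, which loads peptides onto class II molecules, and H2-Oa and H2-Ob encode H2-O, which inhibits H2-M. Class II genes are active in B cells, dendritic cells and thymic epithelium and are silent in mouse T cells; where active, the factor CIITA acts on conserved X and Y boxes in their promoters. Tap1, a subunit of the transporter that carries peptides into the endoplasmic reticulum, and Psmb8, a subunit of the immunoproteasome, lie among the class II genes but serve the class I pathway, which is active in T cells. The name class II genes therefore does not hold for these last 2 genes. NOD and BL6 mice carry different haplotypes of the region, neither of which yields I-E on the cell surface because H2-Ea is not functional, and the region is a known risk locus for NOD diabetes.

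A gene was credited with every listed interaction of at least 10 kb that had an anchor within its body (GRCm38) or the 5 kb on either side, and its level is given as PETs per 100000 PETs of chromosome 17 in the same table. An interaction that reached the windows of 2 genes was credited to both, so counts of members are not counts of independent genes. The tables held only interactions with at least 2 PETs and a q-value up to 0.05, so a gene at 0 had no listed interaction rather than no contact. Chromosome 17 PETs numbered 4893 and 23880 in the NOD H3K27ac libraries, 7834 and 59861 in the BL6 H3K27ac libraries, 62646 and 36058 in the NOD Smc1 libraries, and 78511 and 99496 in the BL6 Smc1 libraries. One interaction of 2 PETs was worth 40.9 on the scaled level in NOD H3K27ac library 1 and 25.5 in BL6 H3K27ac library 1, against 2.01 to 8.38 in the other 6 NOD and BL6 libraries. A value of 0 in either of the first 2 libraries is thus a coarse measurement. Contacts are not expression, so cell type markers could only be checked for their contacts. The 9 double-positive thymocyte markers had a median log2 difference between H3K27ac and Smc1 of 1.68 in NOD and 1.31 in BL6, beside medians of 0.30 and 0.21 over all genes tested. The same medians were 0.28 and -0.04 for 6 B cell markers, 0.44 and 0.34 for 7 dendritic cell and macrophage markers (5 and 6 tested), and 0.72 and 0.43 for 6 thymic epithelium markers, and none of these markers passed the test. Chromosome 17 held 1.28% and 4.80% of PETs in the NOD H3K27ac libraries, 1.78% and 4.97% in the BL6 H3K27ac ones, and 2.43% to 4.13% in the NOD and BL6 Smc1 libraries, so scaling to it raises library 1 of each H3K27ac pair.

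The promoters differ in the boxes they hold. Sequences were matched for 7 of the 8 genes, all but H2-Ab1. The 250 bases before the start are given for the 4 of these 7 genes whose window held the letters of an X box core (GCAAC) followed by those of a Y box core (TGATTGG), and for Tap1, whose promoter carried an H3K27ac anchor; capitals mark matches to either core on either strand (RefSeq, GRCm38.p6).
H2-Aa, chr17:34287824-34288073, minus strand: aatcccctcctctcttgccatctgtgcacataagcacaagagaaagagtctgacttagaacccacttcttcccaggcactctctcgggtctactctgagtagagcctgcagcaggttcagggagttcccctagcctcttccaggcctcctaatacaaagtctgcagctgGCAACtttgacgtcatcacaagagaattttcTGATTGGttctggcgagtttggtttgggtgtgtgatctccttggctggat
H2-Eb1, chr17:34305617-34305866, plus strand: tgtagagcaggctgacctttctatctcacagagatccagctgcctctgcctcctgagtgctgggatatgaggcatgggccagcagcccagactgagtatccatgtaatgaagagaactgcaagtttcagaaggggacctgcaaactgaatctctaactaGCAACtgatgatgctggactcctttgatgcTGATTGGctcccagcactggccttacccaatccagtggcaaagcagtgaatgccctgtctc
H2-Oa, chr17:34092129-34092378, plus strand: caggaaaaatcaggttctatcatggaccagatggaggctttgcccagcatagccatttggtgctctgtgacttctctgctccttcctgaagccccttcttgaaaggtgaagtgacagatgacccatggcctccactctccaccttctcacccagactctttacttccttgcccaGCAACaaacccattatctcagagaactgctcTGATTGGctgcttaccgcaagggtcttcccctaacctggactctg
H2-Ob, chr17:34238655-34238904, plus strand: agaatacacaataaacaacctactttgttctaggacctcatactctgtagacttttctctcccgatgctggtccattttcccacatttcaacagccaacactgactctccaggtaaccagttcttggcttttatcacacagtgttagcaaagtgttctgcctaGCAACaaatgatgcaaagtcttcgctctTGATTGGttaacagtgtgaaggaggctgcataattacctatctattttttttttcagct
Tap1, chr17:34187306-34187555, plus strand: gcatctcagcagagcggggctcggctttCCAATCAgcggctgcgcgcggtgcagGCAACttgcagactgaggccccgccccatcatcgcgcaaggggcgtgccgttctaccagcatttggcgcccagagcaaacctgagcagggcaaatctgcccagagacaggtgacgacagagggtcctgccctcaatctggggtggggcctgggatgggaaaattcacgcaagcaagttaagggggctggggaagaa
The cores were searched on both strands and were chosen after the sequences had been seen. In H2-Aa, H2-Eb1, H2-Oa and H2-Ob the X box core preceded the Y box core by 31, 30, 31 and 28 bases from start to start, and the Y box core began 50, 61, 45 and 59 bases before the start of the gene. Among 32851 promoter windows of the same length, 7.23% held TGATTGG, 29.9% held GCAAC, and 0.268% held GCAAC followed by TGATTGG within 40 bases on 1 strand. Tap1 held TGATTGG on the opposite strand, and its window reaches into Psmb9, which is transcribed the other way from a start next to that of Tap1. The windows of Psmb8 and H2-DMa had no match to TGATTGG, and those of H2-DMa do not lie at the start of its annotated body. The MboI site GATC, where contacts can be captured, was present in the windows of H2-Aa, H2-Eb1 and Psmb8 and in 41.9% of all windows. These matches describe letters and not binding.

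Anchors, the segments at which the authors listed interactions, fell on promoters in different tables for different genes. The Tap1 promoter window was covered in all 4 H3K27ac tables, with 668 and 1081 anchor reads in NOD and 793 and 1082 in BL6, and in 1 Smc1 table, BL6 library 2, with 461 reads. The Psmb8 promoter window was covered in the same 4 H3K27ac tables, with 728 and 2105 reads in NOD and 555 and 1357 in BL6, and in no Smc1 table. Its reads in NOD library 2 were 5.75 times the median of that library's chromosome 17 anchors, and in BL6 library 2 3.42 times. Smc1 anchors did lie near this window in all 4 Smc1 tables of the parent strains. Within the merged site chr17:34197269-34201408 over Psmb8 they had 364 and 280 reads in NOD and 245 and 359 in BL6. The H2-Aa promoter was covered in tables of both antibodies. An anchor lay on it in all 4 Smc1 tables of the parent strains, with 415 and 294 reads in NOD and 505 and 724 in BL6. It was also covered in H3K27ac library 2 of each strain and in the F1 table on the BL6 genome. H3K27ac library 1, where it was not, had 2304 chromosome 17 anchors in NOD and 2926 in BL6. Library 2 had 7940 and 13101, so the absence in library 1 is a coarse measurement. The H2-Eb1 promoter carried an anchor in both BL6 Smc1 tables and BL6 H3K27ac library 2, and in no NOD table. The H2-Oa promoter carried one in H3K27ac tables alone, with 232 and 713 reads in NOD and 0 and 570 in BL6. H2-DMa had 2 promoter windows, neither of which lies at the start of its annotated body at chr17:34119693. They differed in their anchors. The outer window lay in a site that also overlaps Brd2 and was covered in H3K27ac tables. Its reads were 466 and 893 in NOD and 0 and 608 in BL6. The inner window was covered in Smc1 tables, with 219 and 219 reads in NOD and 231 and 263 in BL6. The H2-Ob promoter carried none in any table, although H2-Ob had the highest Smc1 level per kb.

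**Figure D1:**
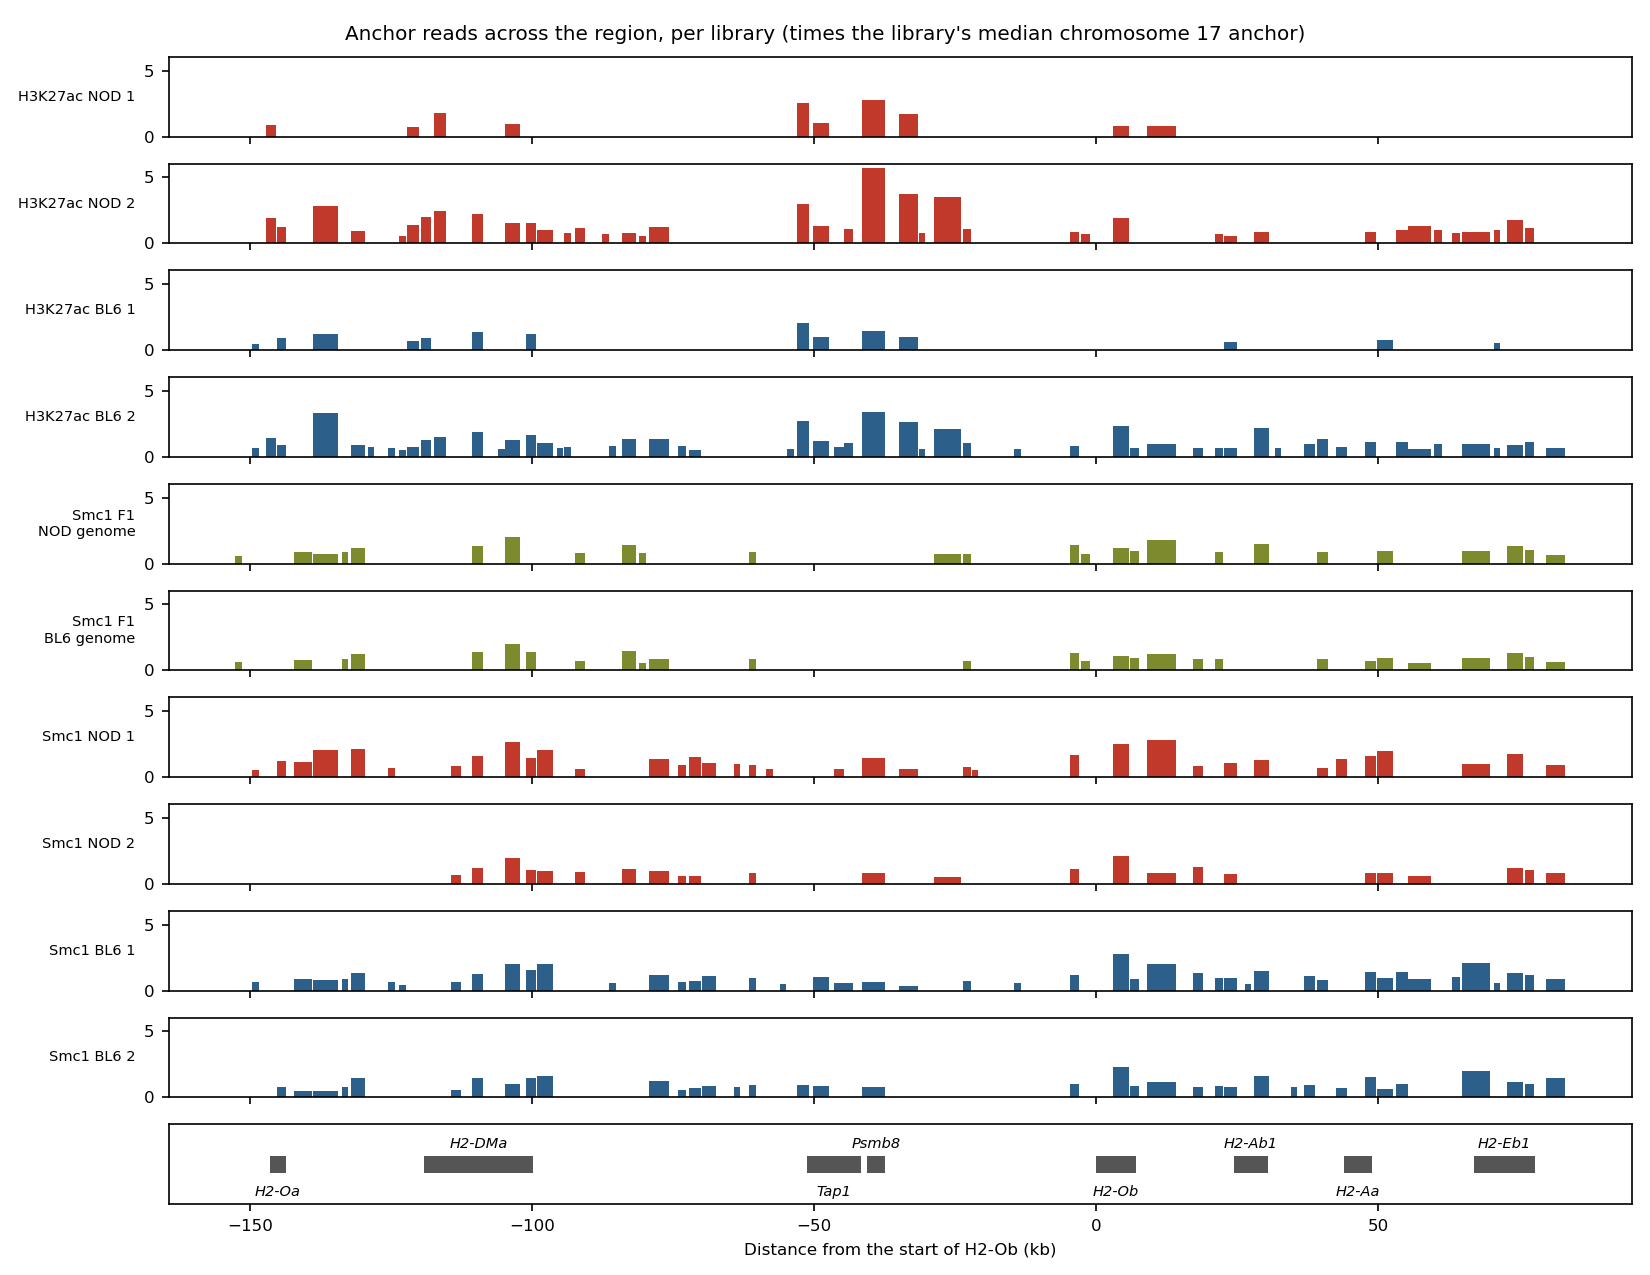
Anchor reads from H2-Oa to H2-Eb1, as multiples of the median chromosome 17 anchor of each table (y axis), against the distance from the start of H2-Ob in kb (x axis); overlapping anchors were merged into sites, bar width is the site's length, NOD is red, BL6 blue and F1 green, and grey bars below mark the 8 genes. The tallest bar of each H3K27ac table lies at Psmb8 or the Tap1 start, reaching 5.75 at Psmb8 in NOD library 2, and the tallest bar of each NOD and BL6 Smc1 table lies within or beside H2-Ob, reaching 2.84 in NOD library 1.

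Merged over the 10 tables, in which the F1 library counts as 2, 47 anchor sites lay in the windows of the 8 genes. Of these, 25 were found in 5 or more tables, 7 in 1 table and none in all 10. Among the 8 parent libraries, 9 sites had H3K27ac anchors only and 5 had Smc1 anchors only. The most widely shared site of H2-Ob lay inside the gene at chr17:34241902-34244769 (GRCm38) and was missing only from BL6 H3K27ac library 1. Its reads were 644 and 731 in the NOD Smc1 libraries, which is 2.51 and 2.14 times their medians, and 1000 and 1096 in the BL6 Smc1 libraries, 2.79 and 2.29 times. A pair of sites inside H2-DMa were also found in 9 tables each, and the gene had 11 sites in all, 5 of them with H3K27ac anchors only. The annotated body of H2-DMa reaches into the neighbour Brd2, so its values include contacts of that gene's start.

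Over the 8 genes with each interaction counted once, the NOD H3K27ac libraries listed 1001 and 829 PETs per 100000 and the BL6 H3K27ac libraries 970.1 and 665. The NOD Smc1 libraries listed 541 and 349, and the BL6 Smc1 libraries 574 and 525. On this scale H3K27ac libraries were above Smc1 libraries in both strains, while the strains overlapped in H3K27ac and in Smc1. The log2 ratio of the group means was 1.04 for H3K27ac against Smc1 in NOD and 0.57 in BL6, with replicate SDs of 0.49 and 0.40 on that scale (n = 2 libraries a group). For NOD against BL6 it was 0.16 in H3K27ac (SD 0.43) and -0.30 in Smc1 (SD 0.46), both smaller than the spread between libraries. Per 100000 PETs of all chromosomes the antibodies overlapped, at 12.9 and 39.8 in NOD H3K27ac against 20.4 and 8.49 in NOD Smc1, and at 17.2 and 33.1 in BL6 H3K27ac against 23.7 and 19.9 in BL6 Smc1. No permutation p was computed, since 2 libraries against 2 cannot go below 0.333 in a two-sided exact test.

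Per kb of window, the genes ranked differently under the 2 antibodies. In Smc1 H2-Ob came first in both strains, at 9.36 ± 0.37 PETs per 100000 per kb in NOD and 10.0 ± 1.7 in BL6 (SD, n = 2 each). In H3K27ac Psmb8 and Tap1 came first and second in NOD, at 28.2 ± 3.7 and 21.8 ± 8.8, and these neighbours in the order overlapped in their libraries. In BL6 H3K27ac the first 3 places were H2-Oa at 13.0 ± 15.4, Psmb8 at 10.0 ± 0.8 and Tap1 at 9.89 ± 4.37, which did not differ beyond their spread. H2-Aa, H2-Eb1 and H2-Ab1 held the last 3 places in NOD H3K27ac, between 0.69 and 2.20. Tap1 and H2-Oa held the last places in Smc1, at 0.78 ± 0.50 for Tap1 in NOD and 1.67 ± 0.16 for H2-Oa in BL6.

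**Figure D2:**
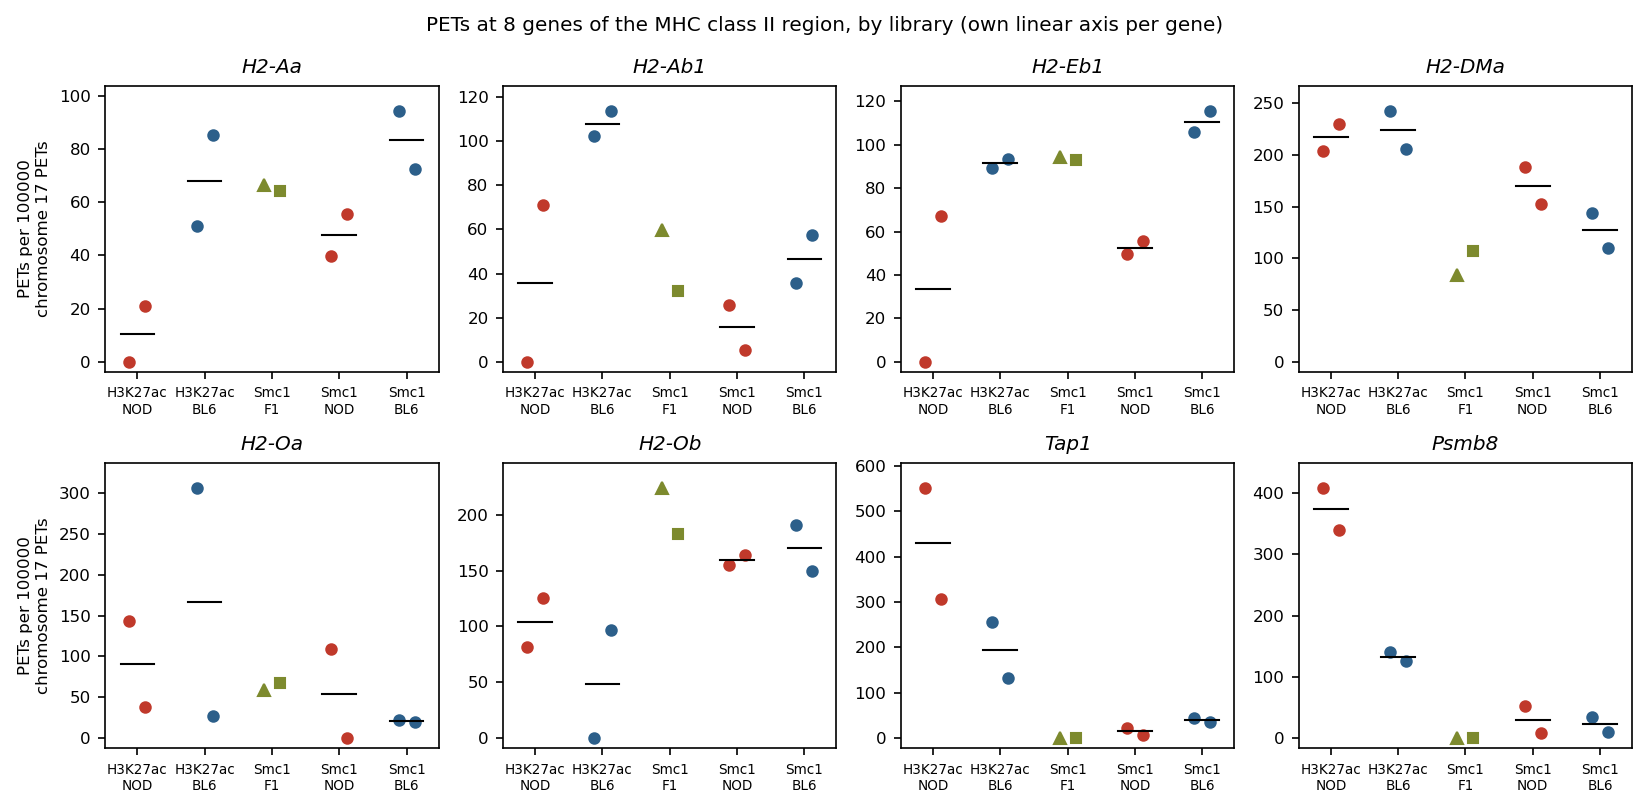
PETs per 100000 chromosome 17 PETs (y axis, linear, scaled for each gene) at each gene by antibody and strain; each dot is 1 library, the bar is the mean of 2, and for F1 the triangle is the table on the NOD genome and the square the table on the BL6 genome. Tap1 and Psmb8 are highest in NOD H3K27ac libraries, at 306 to 552 and 339 to 409, and have no listed interaction in F1, while H2-Ob has Smc1 values between 149.8 and 224.

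No member passed an adjusted p of 0.05 in any of the 5 comparisons (edgeR quasi-likelihood test, Benjamini-Hochberg adjustment over all genes tested). Each of these edgeR fits scaled a gene by the PETs of its own chromosome. For NOD against BL6 in Smc1, 0 of 8 members were called, beside 30 of 18095 genes (0.166%), of which 27 were higher in NOD (0.149%) and 3 lower (0.0166%); without NOD library 1 the split was 110 higher and 609 lower. For NOD against BL6 in H3K27ac, 0 of 6 members tested were called, beside 0 of 13975 genes (0%), with H2-Oa and H2-Aa below the filter on low counts. For H3K27ac against Smc1, 0 of 7 members were called in NOD, beside 0 of 16484 genes (0%), with H2-Ab1 below the filter, and 0 of 8 in BL6, beside 0 of 17643 genes (0%). For the strain by antibody interaction, 0 of 8 members were called, beside 0 of 18137 genes (0%). At an unadjusted p under 0.05 stood H2-Eb1 in the Smc1 strain comparison, beside 564 genes (3.12%), and Psmb8 in the H3K27ac one, beside 155 genes (1.11%). Tap1 and Psmb8 did so for H3K27ac against Smc1 in NOD, beside 2046 genes (12.4%), and in BL6, beside 1794 genes (10.2%), and Tap1 in the interaction, beside 413 genes (2.28%). DESeq2, scaled over genes of all chromosomes rather than by the gene's own, called 42, 17, 340, 204 and 0 genes in the same order. The median log2 difference of the members tested was -0.46 between strains in Smc1, beside -0.03 over all genes tested, and 0.45 in H3K27ac, beside 0.04. Between antibodies it was 0.36 in NOD, beside 0.30, and 1.01 in BL6, beside 0.21.

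**Figure D3:**
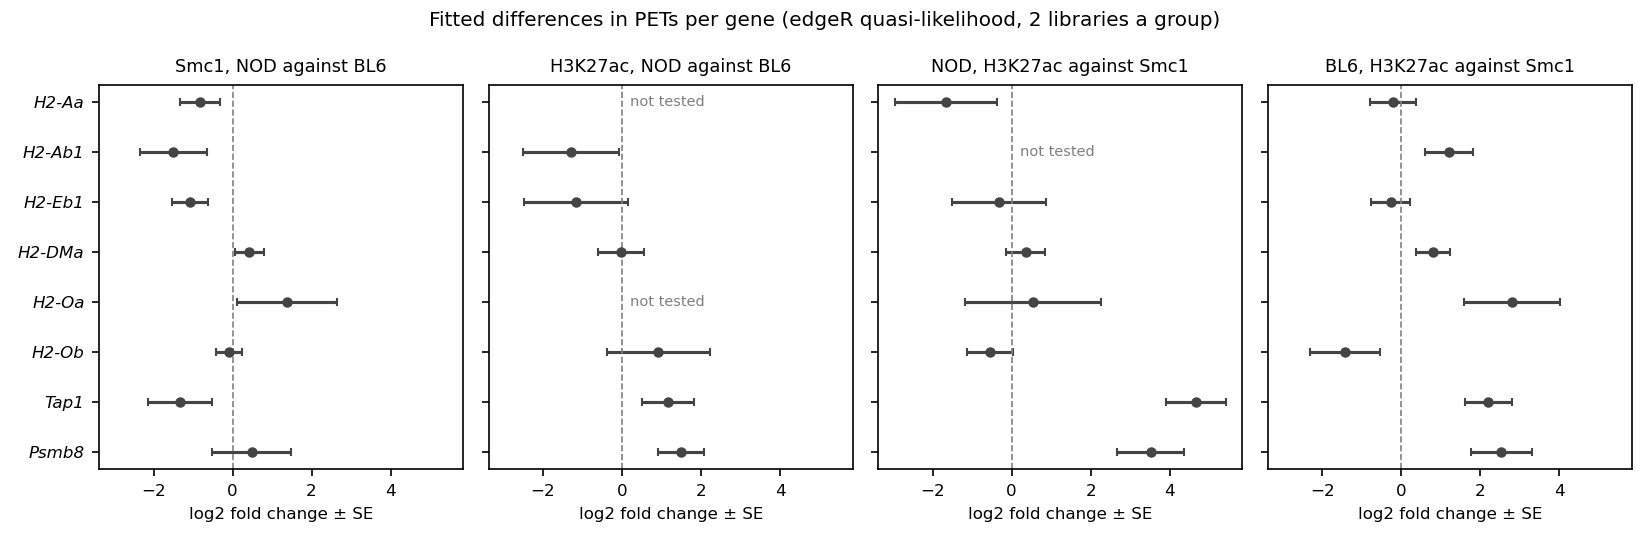
Fitted log2 fold change (x axis) with its standard error for each gene (rows) in 4 comparisons, each with 2 libraries a group; positive values mean higher in the group named first, and genes under the filter on low counts are marked as not tested. Tap1 and Psmb8 stand to the right of 0 under both strains for H3K27ac against Smc1, at 4.67 and 3.52 in NOD and 2.21 and 2.54 in BL6, and no value passed the adjusted threshold.

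The genes of the peptide-presenting class II molecules had lower values in NOD than in BL6 libraries of both antibodies, though no difference passed the test. H2-Eb1 had 49.5 and 55.5 PETs per 100000 in NOD Smc1 libraries, against 105.7 and 116 in BL6. H2-Aa had 39.9 and 55.5 in NOD, against 94.3 and 72.4 in BL6. H2-Ab1 had 25.5 and 5.55 in NOD, against 35.7 and 57.3 in BL6. Tap1 was also lower in Smc1, which makes 4 of 8 members with both NOD libraries below both BL6 libraries, where 17.6% of all genes tested did so, and 1 member, H2-DMa, with both above, where 14.5% did so. The fitted log2 differences were -1.08 ± 0.45 for H2-Eb1 (unadjusted p = 0.0389), -0.82 ± 0.51 for H2-Aa and -1.49 ± 0.84 for H2-Ab1 (SE), each with an adjusted p of 0.999 by edgeR. Over the gene body alone, without flanks, the difference of H2-Aa turned to 0.98. Per 100000 PETs of all chromosomes the same 4 members had both NOD libraries below both BL6 libraries, and H2-DMa overlapped. Between the windows of H2-Aa and H2-Eb1, the BL6 Smc1 libraries listed 19 and 0 PETs and the NOD ones 0 and 4. Such PETs are in the totals of both genes, so their common direction is not made of separate observations.

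In H3K27ac, H2-Eb1 had 0 and 67.0 PETs per 100000 in NOD, against 89.4 and 93.6 in BL6. H2-Ab1 had 0 and 71.2 in NOD, against 102 and 114 in BL6. H2-Aa had 0 and 20.9 in NOD, against 51.1 and 85.2 in BL6. For these 3 members, of which H2-Aa was too low to be tested, every NOD library lay below every BL6 library, where 11.9% of genes tested did so. The 3 share interactions. BL6 library 2 listed 11 PETs between H2-Ab1 and H2-Aa, 9 between H2-Ab1 and H2-Eb1 and 6 between H2-Aa and H2-Eb1. Per 100000 PETs of all chromosomes all 3 overlapped between strains. The zeros come from the shallowest library, in which 1 interaction of 2 PETs equals 40.9. The fitted differences of H2-Ab1 (-1.30 ± 1.22) and H2-Eb1 (-1.15 ± 1.32, SE) were about as large as their errors, with adjusted p of 1.00 by edgeR.

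Between antibodies, H2-Aa and H2-Eb1 did not have both H3K27ac libraries above both Smc1 libraries in either strain. H2-Eb1 overlapped in NOD and H2-Aa overlapped in BL6. In NOD both H3K27ac values of H2-Aa lay below both Smc1 values, and in BL6 the H2-Eb1 values did so, at 89.4 and 93.6 against 105.7 and 116. H2-Ab1 differed: its BL6 H3K27ac values of 102 and 114 stood above its BL6 Smc1 values of 35.7 and 57.3, with a log2 difference of 1.22 ± 0.61 (SE, adjusted p = 0.545, edgeR). In BL6, 5 of 8 members had both H3K27ac libraries above both Smc1 libraries (28.6% of genes tested) and 2 had both below (17.3%). In NOD, 3 members had both above (31% of genes tested) and 2 had both below (17.4%). Per 100000 PETs of all chromosomes, 3 members were above in BL6 (H2-Oa, Tap1 and Psmb8) and 1 below (H2-Ob), and in NOD 2 were above (Tap1 and Psmb8) and 1 below (H2-Aa).

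The genes of peptide loading, H2-DMa, H2-Ob and H2-Oa, had unlike values. H2-DMa had 204 and 230.3 PETs per 100000 in NOD H3K27ac libraries, against 243 and 205 in BL6, and 188 and 153 in NOD Smc1 libraries, against 144 and 111 in BL6. Its Smc1 difference between strains was 0.43 ± 0.35 on the log2 scale (SE, adjusted p = 0.999, edgeR). It is the longest window, at 29.4 kb, and its level per kb was 7.39 ± 0.62 in NOD H3K27ac, 7.62 ± 0.89 in BL6 H3K27ac, 5.80 ± 0.86 in NOD Smc1 and 4.33 ± 0.80 in BL6 Smc1 (SD, n = 2 each).

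H2-Ob, the beta chain gene of H2-O, was the opposite of Tap1 in its antibody pattern. It had 155 and 164 PETs per 100000 in NOD Smc1 libraries and 191 and 149.8 in BL6 Smc1 libraries, so the strains overlapped. In H3K27ac it had 81.7 and 126 in NOD and 0 and 96.9 in BL6, below the Smc1 values of its own strain in every library; per 100000 PETs of all chromosomes this held in BL6 and not in NOD. The fitted antibody difference was -0.55 ± 0.58 in NOD and -1.43 ± 0.89 in BL6 (SE, adjusted p = 0.731 and 0.605, edgeR). H2-Oa, the alpha chain gene, gave values that differed widely between libraries of 1 group. It had 143 and 37.7 in NOD H3K27ac, 306 and 26.7 in BL6 H3K27ac, 109 and 0 in NOD Smc1, and 22.9 and 20.1 in BL6 Smc1. In NOD Smc1 library 1 it had 21 listed interactions, and in library 2 none, so no strain or antibody difference is read from it.

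Tap1 and Psmb8 had more PETs per 100000 in every H3K27ac library than in any Smc1 library, of either strain. Tap1 had 552 and 306 PETs per 100000 in NOD H3K27ac libraries, against 22.3 and 8.32 in NOD Smc1 libraries. In BL6 it had 255 and 134 in H3K27ac, against 44.6 and 36.2 in Smc1. The groups did not overlap. The fitted difference for Tap1 was 4.67 ± 0.75 in NOD (SE, adjusted p = 0.127, edgeR) and 2.21 ± 0.61 in BL6 (adjusted p = 0.394, edgeR). The NOD difference passed with 1 edgeR fit over the 8 libraries (adjusted p = 0.0307). It also passed with DESeq2 (4.09, adjusted p = 0.00452), which did not scale to chromosome 17. Those settings called 118 and 340 genes in all, in that order. Psmb8 had 409 and 339 in NOD H3K27ac, against 52.7 and 8.32 in NOD Smc1, and 140.4 and 125 in BL6 H3K27ac, against 34.4 and 11.1 in BL6 Smc1. Its difference was 3.52 ± 0.85 in NOD and 2.54 ± 0.78 in BL6 (SE, adjusted p = 0.244 and 0.409, edgeR). In BL6 both genes passed without H3K27ac library 1 (adjusted p = 0.0418 for Tap1 and 0.0149 for Psmb8, edgeR) and without library 2 (0.00285 and 0.0299), fits that called 1595 (8.64%) and 4257 (23.1%) of all genes tested. The windows of the 2 genes overlap, so they share interactions and are not independent.

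Between strains, both genes had higher values in NOD H3K27ac libraries than in BL6 ones, which made 2 of 8 members with no overlap in this direction (13.9% of genes tested). Per 100000 PETs of all chromosomes Tap1 still did not overlap, at 7.09 and 14.7 in NOD against 4.54 and 6.65 in BL6, and Psmb8 overlapped, at 5.25 and 16.3 in NOD against 2.49 and 6.23 in BL6. The log2 difference was 1.49 ± 0.58 for Psmb8 (unadjusted p = 0.0390) and 1.16 ± 0.66 for Tap1 (SE, adjusted p = 1.00 each, edgeR). In Smc1, Tap1 pointed the other way at -1.33 ± 0.80 and Psmb8 overlapped between strains at 0.48 ± 1.00 (SE). The interaction of strain and antibody was 2.47 ± 0.94 for Tap1 (unadjusted p = 0.0257, adjusted p = 1.00, edgeR) and did not pass.

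Part of the strain difference at these genes lay in contacts over short distances. In the NOD H3K27ac tables, the Tap1 and Psmb8 windows were joined by 10 and 36 PETs, and no other table listed an interaction between them. In NOD library 1, chr17:34185782-34187834, which covers the Tap1 and Psmb9 starts, met chr17:34200219-34201319 within Psmb8 with 5 PETs at 14.0 kb, and chr17:34188730-34189843 within Tap1 met chr17:34204104-34205830 with 5 PETs at 15.7 kb. In NOD library 2, chr17:34186314-34187891 met chr17:34197283-34201408, which spans Psmb8, with 21 PETs at 12.2 kb, and chr17:34204097-34207268 with 15 PETs at 18.6 kb. In both libraries the farthest anchor lies beyond the end of Psmb8. It falls in the 5 kb flank of Psmb8, at a site that overlaps Tap2. The PETs between the Tap1 window and Psmb8 itself were thus 5 and 21. The BL6 H3K27ac tables held anchors at the same sites but no interaction that joined them. With a minimum distance of 20 kb in place of 10 kb, for genes and chromosome alike, Tap1 had 364 and 158 PETs per 100000 in NOD H3K27ac against 266 and 137 in BL6, which overlap, and Psmb8 had 214 and 193 in NOD against 146 and 128 in BL6. The strain difference of Psmb8 was then 0.57 on the log2 scale and that of Tap1 0.36. Interactions of 10 to 20 kb took 3.86% and 1.96% of all chromosome 17 PETs in the NOD H3K27ac tables, against 3.39% and 2.23% in the BL6 ones, which overlap.

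**Figure D4:**
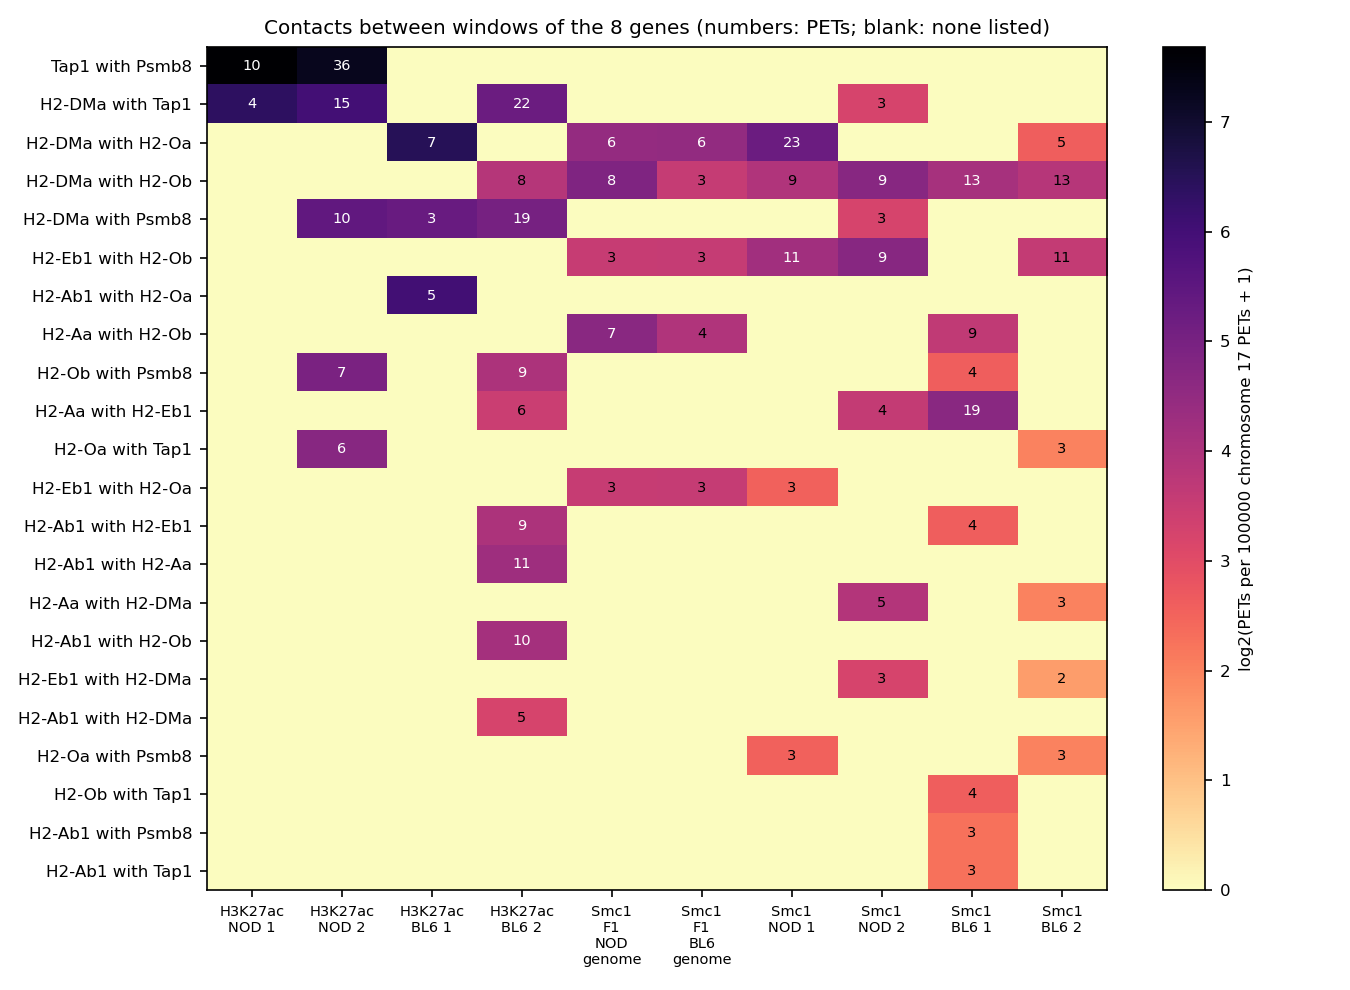
Contacts between the windows of the 8 genes, with a row for each pair that any table listed and a column for each table; the colour is log2(PETs per 100000 chromosome 17 PETs + 1), the number in a cell is its PETs, and blank cells had no listed interaction. Tap1 with Psmb8 is filled only in the NOD H3K27ac tables, with 10 and 36 PETs, and H2-DMa with H2-Ob is filled in every Smc1 table. Of the PETs of Tap1 with Psmb8, 5 and 15 ended in the 5 kb flank of Psmb8, at a site that overlaps Tap2.

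Among contacts between members, that of H2-DMa with H2-Ob recurred most. It held 9 and 9 PETs in the NOD Smc1 libraries and 13 and 13 in the BL6 Smc1 libraries, 8 in BL6 H3K27ac library 2, and 8 and 3 in the F1 library on the NOD and the BL6 genome. The other H3K27ac tables did not list it. H2-Ob with H2-Eb1 had 11 and 9 PETs in NOD Smc1 libraries and 0 and 11 in BL6 ones, with 3 in each F1 table and none in H3K27ac. H2-DMa with Tap1 went with H3K27ac instead, at 4 and 15 PETs in NOD and 0 and 22 in BL6. In Smc1 it had 0 and 3 in NOD and none in BL6. Of the H3K27ac PETs, 4 and 5 in NOD and 0 and 13 in BL6 came from chr17:34100001-34125000, which also holds Brd2. The next 25 kb gave 0 and 10 in NOD and 0 and 9 in BL6. Contacts of H2-DMa and of Brd2 are thus not separated here. H2-Ab1 with H2-Aa, the neighbouring chains of I-A, was listed once, in BL6 H3K27ac library 2 with 11 PETs.

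Few contacts recurred as the same pair of 25 kb bins. The F1 library counts as 2 tables here, and recurrence over all of chromosome 17 was not computed. The members' interactions fell into 431 pairs, of which 303 were in 1 table, 70 in 2 tables and 11 in 5 or more, and the most shared pair was in 8 tables. That pair joined the bin of H2-Oa with the bin of H2-DMa and H2-DMb2, with 15 and 4 PETs in NOD Smc1, 8 and 5 in BL6 Smc1, none in NOD H3K27ac, 7 and 12 in BL6 H3K27ac and 6 in each F1 table. Next came, in 7 tables each, the bin of H2-DMa and H2-DMb2 with that of H2-Ob, whose PETs are given above, and H2-Ob with the bin of Col11a2, a collagen gene beyond H2-Oa, with 6 and 8 PETs in NOD Smc1 and 6 and 20 in BL6 Smc1. All 11 pairs had both bins between that of H2-Ke6, which also overlaps Col11a2, and that of Btnl2, a butyrophilin-like gene next to the class II genes. In 50 kb bins, 21 of 277 pairs were in 5 or more tables.

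The members' contacts were short for chromosome 17. Between 10 and 100 kb lay 34.7% and 54.5% of their PETs in NOD H3K27ac, 26.3% and 32.2% in BL6 H3K27ac, 33.6% and 40.5% in NOD Smc1, and 33.5% and 30.8% in BL6 Smc1. Over all chromosome 17 interactions the same share was 13.5% to 22.4% in these libraries, and it was lower than the members' share in each of the 10 tables. The median distance of the members' PETs was 93.2 to 268 kb, against 334 to 592 kb for the chromosome. Part of the PETs, between 9.96% and 32.3%, joined a member window at both ends.

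**Figure D5:**
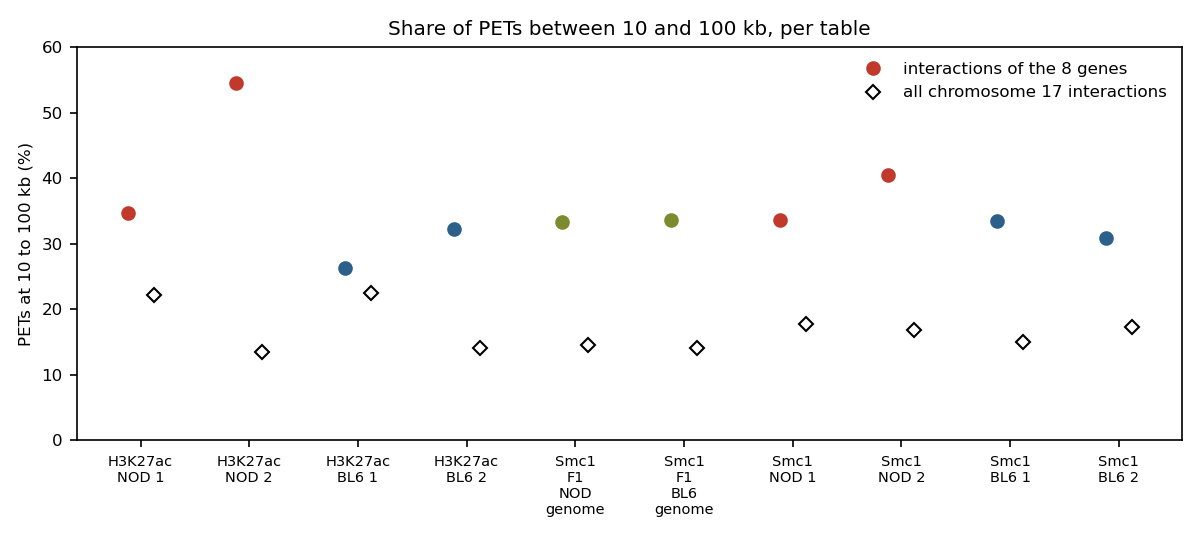
Share of PETs at 10 to 100 kb (y axis, percent) in each table (x axis); filled dots are the interactions of the 8 genes (NOD red, BL6 blue, F1 green) and open diamonds are all chromosome 17 interactions of the same table. The dots lie above the diamonds in all 10 tables, most widely in NOD H3K27ac library 2, at 54.5% against 13.5%.

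The F1 library carried 1 NOD and 1 BL6 haplotype, and both of its tables come from that 1 library. The 8 genes had 494 PETs per 100000 on the NOD genome (95% exact Poisson interval 416 to 582, from 141 PETs) and 479 on the BL6 genome (401 to 568, from 134 PETs). The intervals treat PETs as independent counts and leave out the spread between libraries. Since PETs were listed only in interactions of 2 or more, the intervals are approximate and likely too narrow, those of zeros included. Both summed values lay between the NOD Smc1 values of 541 and 349. H2-Eb1 had 94.6 and 93.0 on the NOD and the BL6 genome, above both NOD Smc1 libraries and below both BL6 ones, and its intervals of 62.3 to 138 and 60.7 to 136 include the values of BL6. H2-Ob had 224 (173 to 286) and 182 (136 to 240), H2-Aa 66.6 and 64.4, H2-Oa 59.5 and 67.9, and H2-DMa 84.1 and 107. H2-Ab1 had 59.5 (34.7 to 95.3) on the NOD genome and 32.2 (14.7 to 61.1) on the BL6 genome, with overlapping intervals. These are mappings of 1 library and not separate counts. Neither table listed any interaction of Tap1 or Psmb8, which also held 2 of the last 3 places per kb in the Smc1 libraries of each parent. These tables held only 28549 and 27964 chromosome 17 PETs on the NOD and the BL6 genome. The intervals of these zeros reach 12.9 and 13.2, above the 8.32 of both genes in NOD Smc1 library 2. The zeros thus do not separate F1 from that library.

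Other genes of the antigen presentation pathway did not pass either. Of 29 listed genes, 28 were matched, since H2-Ea is not a protein-coding gene in the annotation used. None was called in either direction in any of the 5 comparisons, and 2, 2, 5, 3 and 1 of them had an unadjusted p under 0.05 in the order of the tests above. Their median log2 difference between strains was 0.05 in Smc1 and 0.08 in H3K27ac, beside -0.03 and 0.04 over all genes tested. The windows of Tap2 and Psmb9 share interactions with those of Tap1 and Psmb8, and both had more PETs in every H3K27ac library than in Smc1 libraries of the same strain. Tap2, the other subunit of the transporter, had 409 and 461 PETs per 100000 in NOD H3K27ac, against 115 and 175 in BL6, and 70.2 and 13.9 in NOD Smc1, against 31.8 and 11.1 in BL6. Psmb9, another immunoproteasome subunit that starts beside Tap1, had 449.6 and 205 in NOD H3K27ac, against 229.8 and 60.1 in BL6, and 14.4 and 24.96 in NOD Smc1, against 36.9 and 30.2 in BL6. Between strains in H3K27ac, Tap2 did not overlap and Psmb9 did. H2-Eb2, a class II gene past H2-Eb1, was also lower in both NOD Smc1 libraries, at 95.8 and 63.8 in NOD against 152 and 153 in BL6 (log2 difference -0.91 ± 0.39, SE, adjusted p = 0.999, edgeR). In H3K27ac it had 123 and 75.4 in NOD against 0 and 142 in BL6, which overlap. H2-DMb1 and H2-DMb2, which encode the partner chain of H2-DMa, had 60.7 and 99.8, and 67.0 and 94.3, in NOD Smc1, against 31.8 and 21.1, and 68.8 and 55.3, in BL6. The 21 neighbours of the block outside the pathway held no called gene, and their median H3K27ac to Smc1 difference was 1.92 in NOD and 1.12 in BL6, beside 0.36 and 1.01 for the members tested.

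The summed profile of the members over 9 libraries (F1 on the BL6 genome), on the scale log2(PETs per 100000 of the gene's chromosome + 10), was closely like those of Ankrd2 (Pearson r = 0.978), Kif21b (0.972), Arhgef10l (0.970) and Micall2 (0.969) among 14702 genes that averaged 20 or more PETs and lay over 2 Mb away or on another chromosome. These correlations are a description, since all genes of a library share its depth and antibody.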

How the data were processed

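The deposited tables list interactions with their PETs and anchor reads as counts, not normalized, and a p-value and q-value for each, per the file headers. As checked on the values, every listed interaction lay in 1 chromosome, spanned up to 2 Mb and had 2 PETs or more and a q-value up to 0.05. The build GRCm38 and the tools MACS, Juicer 1.7.6 and HiC-Pro are named, without roles, per the submitters' processing notes. PETs at least 10 kb apart were summed per protein-coding gene (body and 5 kb flanks; RefSeq, GRCm38.p6) with Python 3.11.15 and pandas 2.3.3, an unlisted pair counting as 0. edgeR 4.0.16 in R 4.3.3 (filterByExpr, robust quasi-likelihood fit) tested all genes, with the log of the PETs of the gene's own chromosome as offset and no block, and was tested on simulated data. DESeq2 1.42.0, TMM, other filters, windows, distances and PET minimums, a replicate block, a shared fit and leaving out each library were alternatives. All 8 members were named, with neighbouring pathway genes, the 5 most similar profiles (1 is not reported here) and the bin pairs with most PETs. The members, gene lists and tests were chosen with earlier results of these data known. Depth on chromosome 17 was 4893 to 99496 PETs a table.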

Additional observations from a re-analysis of the deposited data

Results flagged for a closer look

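Tap1 drew attention because the strains differed in opposite directions under the 2 antibodies. In H3K27ac both NOD libraries lay above both BL6 libraries, at 552 and 306 PETs per 100000 against 255 and 134, and in Smc1 both NOD libraries lay below both BL6 libraries, at 22.3 and 8.32 against 44.6 and 36.2. The interaction of strain and antibody was 2.47 ± 0.94 on the log2 scale (SE) and did not pass (adjusted p = 1.00, unadjusted p = 0.0257, edgeR). Without interactions of 10 to 20 kb the H3K27ac libraries of the strains overlapped for this gene.

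Contacts under 10 kb, which no comparison used, stood out in the H3K27ac libraries. The 8 genes had 301 and 200.5 such PETs per 100000 chromosome 17 PETs in NOD, a mean of 250.9, against 0 and 26.3 in BL6. Those shared by the Tap1 and Psmb8 windows numbered 17 and 31 PETs in NOD, from 1 interaction in each library, and none was listed in BL6 or in any Smc1 table. They were different contacts. Library 1 joined chr17:34197559-34200007, over the start of Psmb8, with chr17:34200219-34201319 within Psmb8, at 1.99 kb. Library 2 listed chr17:34197283-34201408, which spans Psmb8, as 1 anchor and joined it with chr17:34204097-34207268, at a site that overlaps Tap2, at 6.34 kb. Over all of chromosome 17, PETs under 10 kb made up 13.3% and 11.4% in NOD H3K27ac and 12.8% and 7.51% in BL6 H3K27ac. The difference at the 8 genes was not tested.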

How the results depend on the processing

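No member was called in the Smc1 or H3K27ac strain comparison or in the interaction under any alternative tried. For H3K27ac against Smc1 in NOD, DESeq2 and 1 fit over the 8 libraries each called 1 member, Tap1, beside 340 and 118 genes called in all. In BL6, leaving out a library gave 0 to 4 members: 2 without H3K27ac library 1 (Tap1 and Psmb8) and 4 without H3K27ac library 2 (H2-Oa at adjusted p = 0.000108 by edgeR, Tap1, Psmb8 and H2-Ob, the last with 0 PETs in the library that remained), beside 1595 and 4257 genes called in all, where a lone library is assumed to vary like the Smc1 pair. The libraries share replicate numbers only in name. With a replicate block, 0 members were called in each of the 5 comparisons, while all-gene calls were 43 in Smc1 and 16 in H3K27ac between strains and 0 in the other 3. The cause of these changes was not tested.

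All-gene calls in the Smc1 strain comparison, 30 as reported, were 719 and 48 without NOD library 1 and 2, 4 and 1 without BL6 library 1 and 2, and 5 to 43 under the other settings, with 5 from 1 fit over the 8 libraries. Where 0 were reported, they reached 17 in the H3K27ac strain comparison, 340 (DESeq2), 118 (1 fit) and 25 (without H3K27ac library 2) between antibodies in NOD, and 204 (DESeq2), 13 (1 fit) and 9 (no filter) in BL6, beside the counts without a library given above. The share of bin pairs in 1 table was 70.3% with 25 kb bins and 54.2% with 50 kb bins, which merge more pairs. The log2 ratio of the groups' summed values moved by less than the spread of that ratio between libraries, although the values themselves moved with the window and the PET minimum (in BL6 Smc1, 311 and 288 with gene bodies and 731 and 656 with 3 PETs or more, against 574 and 525). Values per 100000 PETs of all chromosomes for each gene were added after the data had been seen.

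Of 269 single-gene values under alternatives other than leaving out a library, 10 changed sign, none of them called. That count and the ranges below leave out untested genes. They also leave out settings in which a compared group kept no PETs at the gene. For the interaction they cover only Tap1 and Psmb8. Without flanks, Smc1 strain differences were -0.39 for Psmb8 and 0.98 for H2-Aa, H2-DMa was 0.0083 in H3K27ac, and H2-Eb1 was 0.33 between antibodies in BL6. With 3 PETs or more, H2-Ob was 0.28 between strains in Smc1, and between antibodies H2-Eb1 was 0.089 in BL6 and H2-DMa -0.16 in NOD. Windows at gene ends gave 0.27 for H2-DMa in H3K27ac, and H2-Oa between antibodies in NOD was -0.41 with TMM and -0.38 with DESeq2. Leaving out a library gave ranges across 0 for H2-Ob (-0.26 to 0.087) and Psmb8 (-1.42 to 1.48) in the Smc1 strain comparison, H2-DMa in the H3K27ac one (-0.15 to 0.091), H2-Aa between antibodies in BL6 (-0.70 to 0.036), H2-Oa (-0.57 to 1.34) and H2-Eb1 (-0.48 to 0.35) between antibodies in NOD, and the Psmb8 interaction (-0.0023 to 2.90).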
